A study of Drosophila melanogaster with 2 samples.

Results

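The genes described here are the small heat shock genes Hsp22, Hsp23, Hsp26, Hsp27, Hsp67Ba and Hsp67Bc, their overlapping neighbour Hsp67Bb (counted with them by name), the chaperone gene Hsp83 and the heat shock factor gene Hsf, which make 9 of the 13968 protein-coding genes on the Drosophila melanogaster chromosome arms. They were chosen by name after the ranks of the chromatin immunoprecipitation peaks at Hsp27, Hsp26, Hsp22 and Hsp83 were known. Those ranks are therefore given as a description, without a test. Of the 9 names, 8 matched the Ensembl annotation directly, and Hsp67Bb matched its entry CG4456 through a RefSeq synonym. Peaks were taken where the summit, the position of highest signal in a peak, lay in a gene or within 2 kb on either side, or anywhere across the cluster of small heat shock genes on arm 3L. That gave 7 of the 8015 summits in the authors' reproducible list and 20 of the 30000 summits in their pooled list.

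The libraries came from 1 transgenic fly line that stably expressed Ets96B, an ETS-family transcription factor of the PEA3 subfamily, with eGFP at its C terminus. Whole prepupae aged 24 h, with both sexes pooled, were immunoprecipitated with an antibody against GFP, although another label field gives the antibody as Ets96B. The labels name no heat treatment and give 2 biological replicates of this single group, numbered 2 and 3. The authors called peaks against a control alignment, of which the reads were not used here. Chromatin of whole animals does not tell which tissue a peak comes from, and peak lists hold no expression by which the labelled stage could be checked. Each peak carries the authors' signal value, which was used only to rank peaks within 1 list (rank 1 is the strongest). The pooled and replicate lists each hold exactly 30000 peaks, so their length says nothing about depth, and no read depth can be had from them. The 8015 reproducible summits are ranks 1 to 8015 of the pooled list, where the weakest of them had a signal value of 147.649 and the next summit outside had 147.639.

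Small heat shock proteins share an alpha-crystallin domain and hold unfolding proteins in a soluble state until other chaperones refold them. Hsp83 encodes the fly Hsp90, an ATP-driven chaperone of kinases, hormone receptors and other signalling proteins, which is abundant without stress and rises further on heating. Hsf encodes the factor that binds heat shock elements, which are inverted repeats of the unit GAA, and drives both gene sets after heat. Several small heat shock genes of this cluster, Hsp27 and Hsp23 among them, are also switched on by the steroid hormone ecdysone around the start of metamorphosis, without heat. GAGA factor, which binds GA repeats, keeps promoters such as that of Hsp26 open.

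Sequences at 5 of the 7 reproducible peaks are shown first, because the positions of sequence words relative to the summits are compared further on. They are the Hsp27, Hsp26 and Hsp83 peaks, which include the 3 strongest, and Hsp23, whose peak is the weakest of the 7 and has pairs of heat shock units upstream. They were read from the RefSeq copy of dm6, 5′ to 3′ in the direction of the gene. For Hsp27, Hsp26 and Hsp23 they are the 300 bases that end at the base before the first start site, and capitals mark pairs of heat shock units (GAANNTTC or TTCNNGAA, where N is any base). The Hsp27 stretch holds no such pair and stands in lower case throughout. It covers chr3L:9383763-9384062 on the plus strand, and the summit is its base 148.
Hsp27: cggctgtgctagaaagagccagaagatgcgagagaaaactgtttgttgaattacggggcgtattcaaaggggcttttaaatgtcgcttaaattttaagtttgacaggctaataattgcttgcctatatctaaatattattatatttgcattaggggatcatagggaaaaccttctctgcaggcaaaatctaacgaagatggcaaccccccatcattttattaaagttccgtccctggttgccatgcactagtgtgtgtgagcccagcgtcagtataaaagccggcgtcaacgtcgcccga
The Hsp26 stretch covers chr3L:9377428-9377727 on the minus strand, and the summit is its base 190, a few bases past the pair nearest to the gene.
Hsp26: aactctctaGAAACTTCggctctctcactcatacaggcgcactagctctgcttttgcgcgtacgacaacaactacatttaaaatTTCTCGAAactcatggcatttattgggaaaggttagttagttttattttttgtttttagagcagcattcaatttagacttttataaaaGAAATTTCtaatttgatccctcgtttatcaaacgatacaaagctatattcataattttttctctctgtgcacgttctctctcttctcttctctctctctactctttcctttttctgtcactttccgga
The Hsp23 stretch covers chr3L:9381582-9381881 on the plus strand, and the summit is its base 294, next to the start site.
Hsp23: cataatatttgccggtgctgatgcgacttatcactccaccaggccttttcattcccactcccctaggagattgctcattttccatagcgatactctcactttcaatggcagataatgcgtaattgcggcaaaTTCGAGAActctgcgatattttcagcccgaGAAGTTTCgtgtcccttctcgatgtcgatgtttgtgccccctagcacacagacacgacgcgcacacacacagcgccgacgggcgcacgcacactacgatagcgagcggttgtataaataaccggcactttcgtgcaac
The strongest Hsp83 peak lies in the intron, and its summit is base 151 of the next stretch, chr3L:3194127-3194426 on the plus strand. Capitals there mark the word TAATTA alone, and a pair of heat shock units near the start of the stretch is left in lower case.
Hsp83 intron: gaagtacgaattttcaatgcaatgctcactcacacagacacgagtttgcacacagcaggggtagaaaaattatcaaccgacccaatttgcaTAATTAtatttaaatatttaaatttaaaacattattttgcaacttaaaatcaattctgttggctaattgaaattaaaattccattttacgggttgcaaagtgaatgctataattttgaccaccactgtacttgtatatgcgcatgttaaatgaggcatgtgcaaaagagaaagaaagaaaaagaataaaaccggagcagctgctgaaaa
At the Hsp83 promoter peak, 30 bases (chr3L:3193109-3193138, plus strand) are shown because they hold the ETS core CAGGAA, in capitals. The summit is base 29.
Hsp83 promoter: ttcaCAGGAAgttgcatccctggcatccag
The stretches differ in base composition. G+C made up 50.7% of the Hsp23 stretch, 43.3% of the Hsp27 stretch, 35.7% of the Hsp26 stretch and 33.0% of the Hsp83 intron stretch.

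A reproducible summit lay in the gene or within 2 kb of it for 8 of the 9 genes, against 38.4% of all protein-coding genes. Hsf was the exception. Since the genes were chosen with these peaks in view, the share is a description. It also counts the same peaks more than once, because the small heat shock genes stand so close together that 7 summits serve 8 genes. For Hsp67Ba, Hsp67Bb and Hsp67Bc that summit lay more than 500 bp from any of their transcription start sites. Of all protein-coding genes up to 4332 bp long, the length of Hsf, which is the longest of the 9, 3090 of 10035 (30.8%) had a reproducible summit in the same window. A summit of the longer pooled list was present at 9 of 9 genes, against 57.1% of protein-coding genes.

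Within 500 bp of a start site, 5 of the 9 genes (Hsp22, Hsp23, Hsp26, Hsp27 and Hsp83) had a reproducible summit, against 20.5% of all protein-coding genes. Ordered by their strongest start-site summit among the 2863 genes that have one, Hsp27 stood at 16, Hsp26 at 382, Hsp22 at 1070, Hsp83 at 1103 and Hsp23 at 2595. The 5 genes thus run from near the top of the list to near its end. Some summits lay close to the edge of the 2 kb window. Hsp27 had its farthest pooled summit inside the window at 955 bp (rank 25145) and the nearest outside at 2188 bp (rank 7037), which is the summit at the Hsp23 start site. For Hsp23 the farthest inside lay at 1970 bp (rank 10897) and the nearest outside at 2080 bp (rank 27233).

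The cluster spans 14184 bp of arm 3L (dm6, 3L:9371511-9385694) from the end of Hsp67Bc to the end of Hsp27. With 2 kb on either side it held 5 reproducible summits, 13 pooled summits, 13 summits of replicate 2 and 13 of replicate 3. The 5 reproducible summits hold pooled ranks 22, 681, 2490, 5332 and 7037. The density of reproducible summits was 2.75 per 10 kb in the cluster, against 0.657 per 10 kb over the whole of arm 3L. Among adjoining windows of the same length over the arms, 4.81% held at least 5 reproducible summits, the median window held 0 and the fullest held 14. In the pooled list, 6.59% of these windows held 13 summits or more, and the median was 2. These windows cover the whole arms, the Y included, whatever their gene content, while the cluster window holds 11 protein-coding genes. Windows of like gene content were not compared. The genes annotated in the window beside the small heat shock genes are CG4452, Fdx1, CG4461, CG4080, the antisense RNA gene asRNA:CR43481 and the pseudogenes CR43482 and CR43483.

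**Figure D1:**
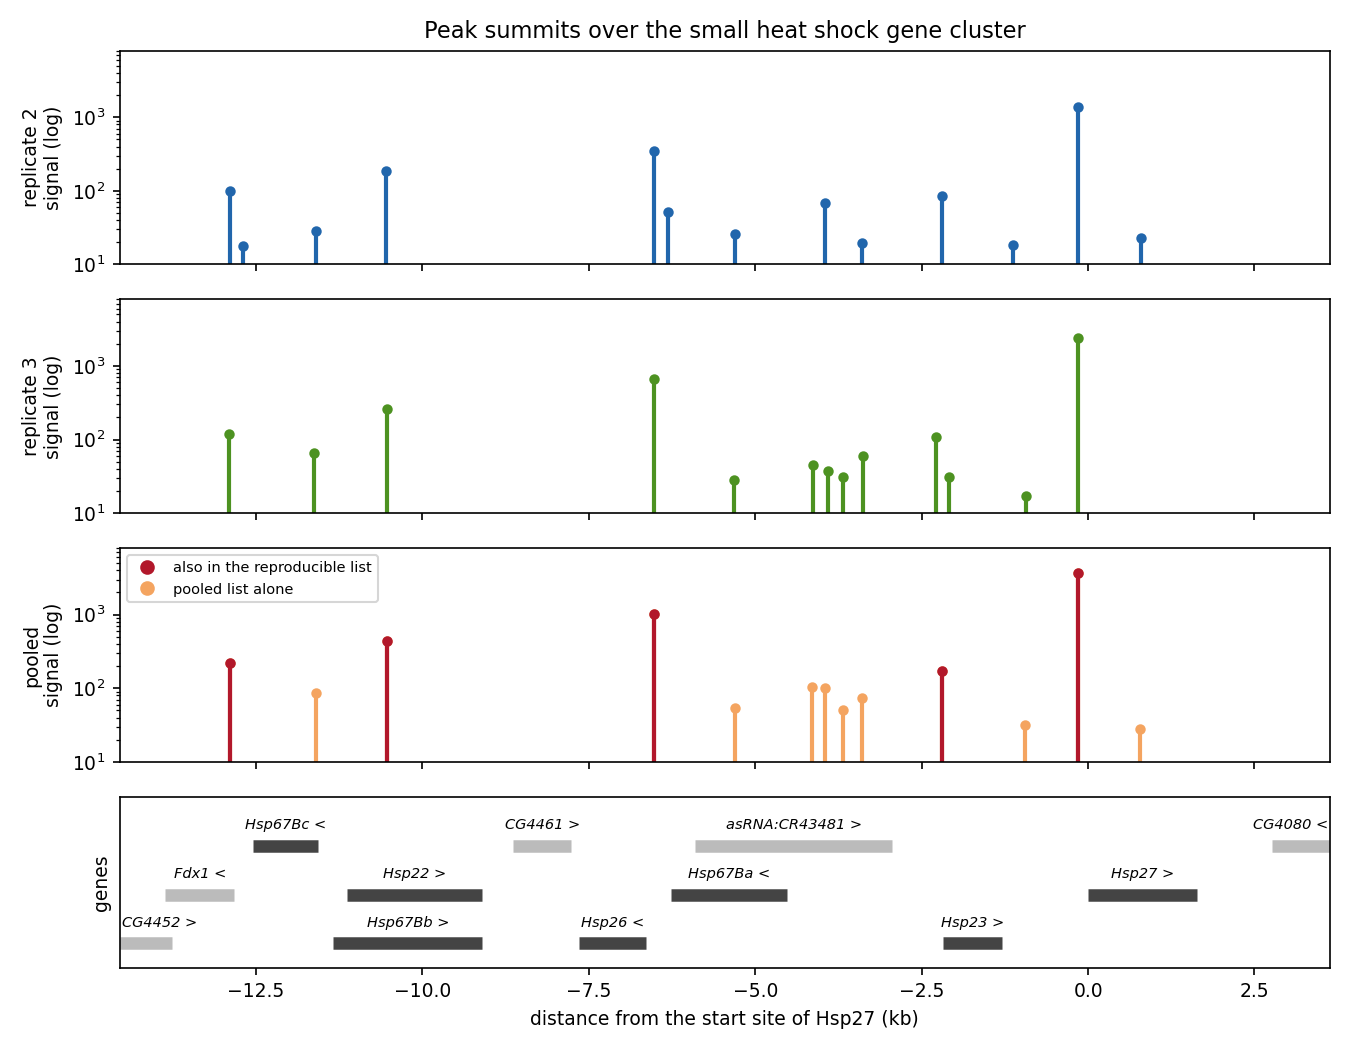
Peak summits across the small heat shock gene cluster in the replicate 2, replicate 3 and pooled lists (signal value, log axis, against distance from the Hsp27 start site in kb), with the annotated protein-coding genes and the antisense RNA gene below (dark, the small heat shock genes and Hsp67Bb; arrows, strand). The Hsp27 summit is the tallest in every panel, followed by Hsp26 and Hsp22, and the 5 dark red summits of the pooled panel are those of the reproducible list.

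Hsp27 (FBgn0001226, 3L:9384063-9385694, plus strand) encodes a small heat shock protein found mainly in the nucleus, and it carried the strongest peak of the cluster. The peak covered 3L:9383629-9384176, with its summit at 9383910, in intergenic sequence 153 bp before the only annotated start site. Its signal value was 1357 in the replicate 2 list, 2428 in the replicate 3 list and 3726 in the pooled list, and the rank was 22 in each of the 3. The replicate summits lay 1 bp before and 0 bp from the pooled summit. At 548 bp the peak was wide, since 3.41% of reproducible peaks were at least as wide. A weak summit in the 3′ UTR of Hsp27 (rank 27233, signal 27.9) had a counterpart in replicate 2, 16 bp away, and none in replicate 3. Another weak summit 955 bp before the start site had rank 25145. The genes with a start-site summit nearest in rank to that of Hsp27 were CHMP2B and Tcs5, which share the summit of rank 23 (signal 3672, 3L:5139489, 130 bp from the start of CHMP2B and 94 bp from that of Tcs5), and osp, with rank 20 (signal 3808, 2L:14689536, 196 bp from its start).

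Hsp26 (FBgn0001225, 3L:9376418-9377427, minus strand) encodes a cytosolic small heat shock protein whose promoter is a textbook case of a gene held ready for heat induction. The summit lay at 9377538, 111 bp before the distal of its 2 start sites, and the peak spanned 738 bp. Only 1.37% of reproducible peaks were at least as wide. Signal values were 352 in replicate 2 (rank 853), 661 in replicate 3 (rank 653) and 1026 in the pooled list (rank 681). Both replicate summits lay 1 bp from the pooled summit. Replicate 2 split the region into 2 peaks, with a weaker summit at 9377755 (rank 9479), where the pooled and replicate 3 lists had 1 peak.

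Hsp22 (FBgn0001223, 3L:9372931-9374964, plus strand) encodes the small heat shock protein of the mitochondrial matrix. Its summit at 9373526 lay 471 bp before the proximal of its 2 start sites, inside the 5′ UTR of the longer Hsp22 transcript and the 3′ UTR of Hsp67Bb, so the position cannot be given to 1 of these genes. The signal value was 184 in replicate 2 (rank 2237), 261 in replicate 3 (rank 2708) and 440 in the pooled list (rank 2490). The replicate summits lay 8 bp before and 1 bp after the pooled summit. Hsp67Bb (FBgn0001228, 3L:9372722-9374964, plus strand), which in spite of its name encodes a protein with a rhodanese-type domain, overlaps Hsp22 and ends at the same base. Neither of its own start sites had a reproducible summit within 500 bp.

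Hsp23 (FBgn0001224, 3L:9381882-9382765, plus strand) encodes a cytosolic small heat shock protein, and its peak was the weakest of the 5 at start sites. The summit at 9381875 stood 7 bp before the start site. Signal values were 84.2 in replicate 2 (rank 5687), 107 in replicate 3 (rank 7057) and 169 in the pooled list (rank 7037). The replicate 2 summit lay 0 bp from the pooled one, while replicate 3 had a summit 99 bp before it and a weaker one at 9381979 (rank 18997) on the other side. The reproducible peak was 110 bp wide, and 97.9% of reproducible peaks were at least as wide.

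Hsp67Bc (FBgn0001229, 3L:9371511-9372497, minus strand) encodes a small heat shock protein that works with the cochaperone Starvin in autophagy. Its own start site had a pooled summit at 9372461, 36 bp into the 5′ UTR, with a signal value of 86.4 (rank 12706). The replicate ranks there were 16707 and 10876. The reproducible summit nearest to the gene, at 9371171, had rank 5332 with signal values of 101 in replicate 2 (rank 4632), 120 in replicate 3 (rank 6249) and 223 in the pooled list. That summit lay in an intron of Fdx1, which encodes a mitochondrial ferredoxin, 67 bp from the Fdx1 start site and 1326 bp from that of Hsp67Bc.

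Hsp67Ba (FBgn0001227, 3L:9377802-9379534, minus strand), another small heat shock gene, had 1 weak pooled summit inside the gene and 4 upstream. The gene is overlapped by asRNA:CR43481 on the other strand. Pooled summits at 378, 582, 840 and 1131 bp before its start site had ranks 10897, 11289, 18829 and 14466, and all lay in an exon of the antisense gene. A further summit in the coding sequence had rank 18115. Replicate 2 had 2 summits where replicate 3 and the pooled list had 4 each upstream of Hsp67Ba, so the number of distinct summits there differed between lists. The only reproducible summit within 2 kb was that of Hsp26, 264 bp past the 3′ end of Hsp67Ba. CG4461, an alpha-crystallin gene inside the cluster, had no pooled summit within 500 bp of its start site.

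Hsp83 (FBgn0001233, 3L:3192969-3197059, plus strand) had 2 reproducible summits, and the stronger lay inside the gene. It stood in an intron at 3194277, 1061 bp after the proximal of the 2 start sites. The signal value there was 534 in replicate 2 (rank 363), 798 in replicate 3 (rank 456) and 1319 in the pooled list (rank 414). The replicate summits lay 0 bp from and 7 bp before the pooled one. The promoter summit at 3193137 fell between both start sites, 79 bp before the proximal and 168 bp after the distal. Its signal value was 65.3 in replicate 2 (rank 7449), 354 in replicate 3 (rank 1817) and 428 in the pooled list (rank 2571). Both replicates therefore placed a summit there, within 20 bp of the pooled one, while its rank differed by 4.10-fold between them. That fold was larger than at 99.0% of the reproducible summits. The rank difference was not matched at the intron summit, where it was 1.26-fold.

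Downstream of Hsp83, a pooled summit at 3197651 had a signal value of 137 and rank 8628, outside the reproducible list. It lay 592 bp past the end of Hsp83 and 20 bp before the start site of CG14966. Its replicate ranks, 8586 and 9598, were close to each other. A weak summit in the 3′ UTR of Hsp83 (rank 28467) was matched in replicate 2 alone.

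Hsf (FBgn0001222, 2R:18130303-18134634, minus strand) had 3 pooled summits and none in the reproducible list. The strongest lay 99 bp into the 5′ UTR, with a signal value of 95.1 and rank 11773. Replicate 2 placed a summit at the same base (signal 31.0, rank 15497). Replicate 3 had a summit on each side, 77 bp upstream (signal 19.5, rank 25604) and 127 bp downstream (signal 64.4, rank 11145). A summit in an intron (rank 23383) had a counterpart in replicate 2 alone. The third lay 654 bp before the Hsf start site and 138 bp before that of Pcl, which encodes the Polycomb-like protein. It had rank 19828 and no counterpart within 100 bp in either replicate list. An overlapping peak of replicate 3 had its summit 107 bp away (signal 39.6, rank 16181). Hsf was the only one of the 9 genes without a reproducible summit in its window.

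**Figure D2:**
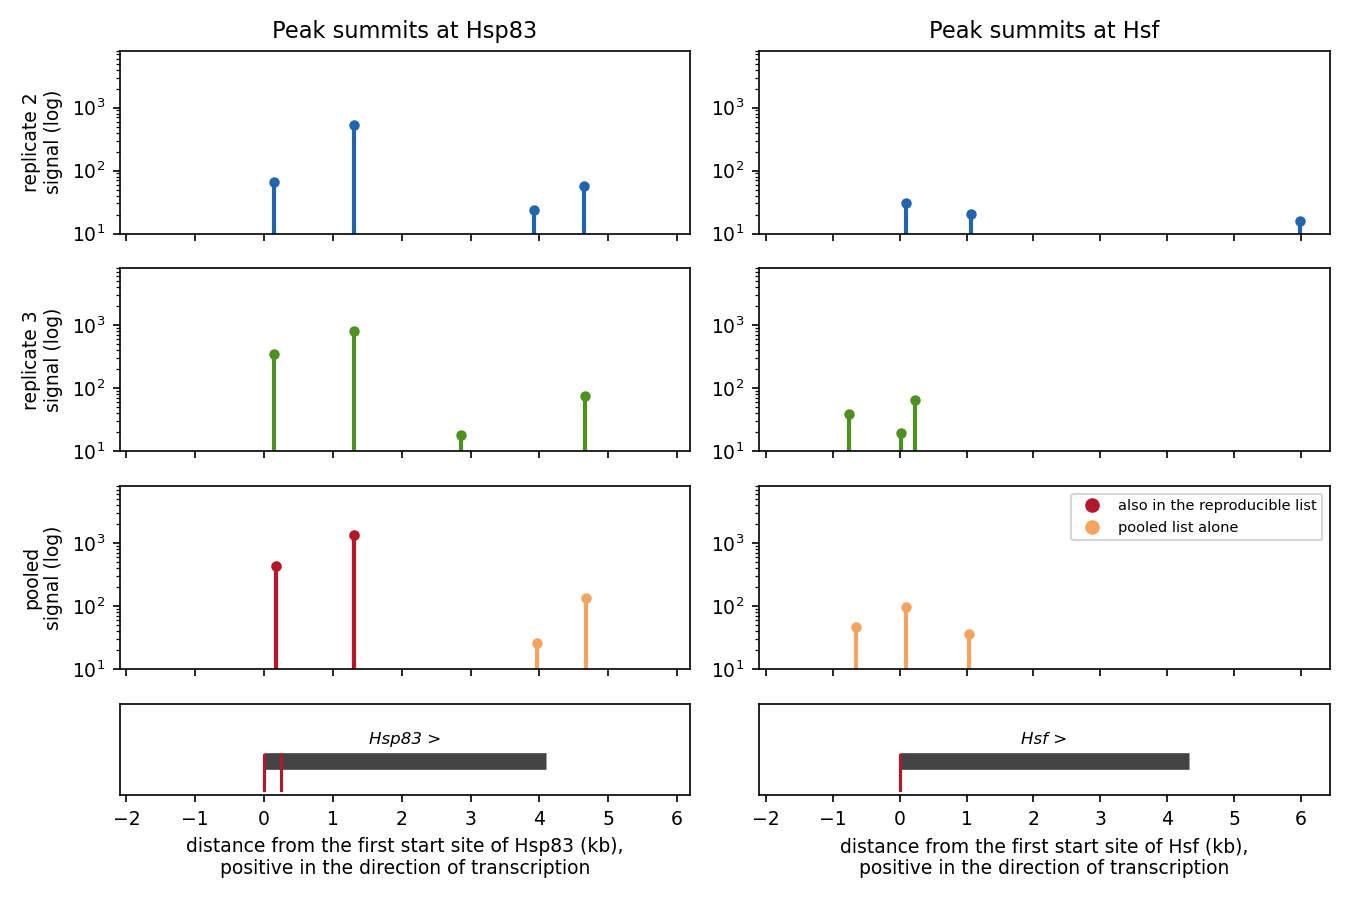
Peak summits at Hsp83 (left) and Hsf (right) in the replicate 2, replicate 3 and pooled lists (signal value, log axis, against distance from the first start site in kb, positive in the direction of transcription); red ticks on the gene bar mark start sites. Hsp83 has its tallest summit in the intron in every list, its promoter summit is higher in replicate 3 than in replicate 2, and no summit at Hsf reaches a signal value of 100.

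Replicate agreement was the only measure of error that these lists allow, and 2 replicates of 1 group permit no test of a difference. A summit of each replicate lay within 100 bp of the pooled summit for 13 of the 20 pooled summits at the 9 genes (65.0%), against 56.5% of all pooled summits. For the reproducible summits the count was 7 of 7, against 94.5% of the reproducible list. The authors derived that list from both replicates, so this share is not independent of them. Its summits are the strongest of the pooled list, so being listed does not by itself show that both replicates ranked a summit alike. Among the remaining pooled summits it was 6 of 13 (46.2%), against 42.6% of pooled summits outside the reproducible list. These shares stood near those of the lists as a whole.

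The fold between the replicate ranks had a median of 1.26 over the 7 reproducible summits and ran from 1 at Hsp27 to 4.10 at the Hsp83 promoter, against a median of 1.31 and a 90th percentile of 2.07 over the reproducible list. It was under the list's median at 5 of the 7. Hsp22 had 1.21, Hsp23 1.24, Hsp26 1.31 and the summit in Fdx1 1.35. The order of the summits was the same in both replicate lists except for 1 change. The Hsp83 promoter ranked after the Fdx1 and Hsp23 summits in replicate 2, and ahead of those and of Hsp22 in replicate 3.

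**Figure D3:**
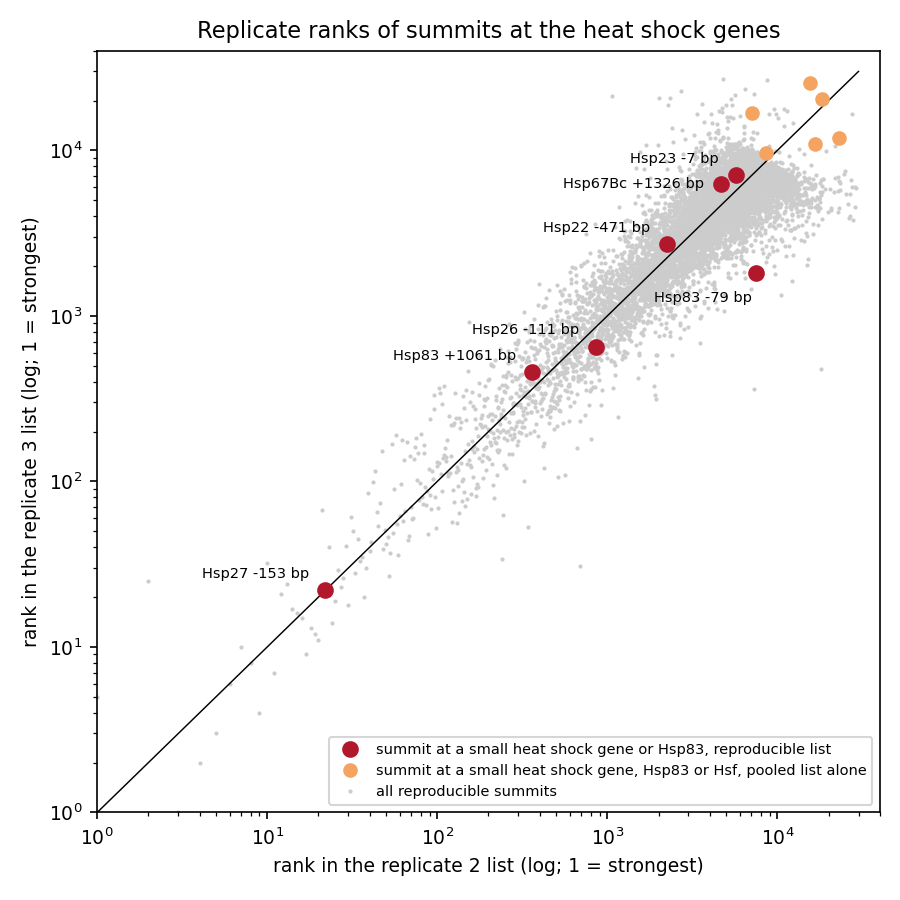
Rank in the replicate 3 list against rank in the replicate 2 list (log axes, 1 is strongest) for summits found within 100 bp in both replicates, with all reproducible summits in grey and the line of equal rank; labels give the nearest start site of the 9 genes, so that the summit in Fdx1 appears under Hsp67Bc. The dark red summits of the small heat shock genes and Hsp83 follow the line from Hsp27 at rank 22 in both lists to Hsp23, and the Hsp83 promoter summit stands farthest from it.

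Sequence words were counted on both strands within 100 bp of the 7 reproducible summits. The genes were chosen by name. As targets of Hsf they carry heat shock elements, so the set is not neutral for that word. A pair of heat shock units lay there at 2 of the 7, Hsp26 and the Hsp83 promoter, against 10.5% of all reproducible peaks and 15.8% of the 19630 windows of 300 bp over the start sites of protein-coding transcripts. The start-site windows are longer than the 100 bp on either side of a summit. A word has more room to occur in them, so their shares, here and below, are not like for like with those of peaks. With so few peaks, the count is a description. At Hsp26 a GAANNTTC word centred 13 bp from the summit, and further pairs stood at 101, 117, 176 and 202 bp. The pair at the Hsp83 promoter was also GAANNTTC, centred 14 bp from the summit. A full row of 3 units in alternating orientation occurred near none of the 7 summits, against 0.312% of the reproducible peaks and 0.418% of the start-site windows. Allowing up to 1 mismatch, such rows lay near the Hsp83 promoter summit, which had 4 overlapping matches, against 5.91% of the reproducible peaks and 8.14% of the start-site windows. Hsp23 had a row of this kind centred 99 bp from its summit, with part of it beyond the window, and pairs at 127 and 157 bp. At Hsp27 the nearest pair stood 181 bp upstream of the summit, outside the 300 bases shown, with rows of up to 1 mismatch at 184 and 189 bp. The Hsp83 intron had a pair 139 bp from its summit and rows with up to 1 mismatch at 163 and 173 bp. At Hsp22 the nearest pair was centred 286 bp from the summit.

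GAGAG, a word bound by GAGA factor, lay within 100 bp of 1 of the 7 summits, against 22.9% of reproducible peaks and 33.1% of start-site windows. That summit was Hsp26, with 6 overlapping or adjacent matches 45 to 78 bp from it on the side of the gene, seen in the Hsp26 sequence as the run of tctctc. Hsp26 had more at 166, 168 and 185 bp. Hsp22 had 6 matches between 136 and 173 bp from its summit and others at 215, 217 and 275 bp. Hsp27 had 3 between 116 and 162 bp, and Hsp23 had 1 at 199 bp. The TATA box word TATAAA lay near 4 of the 7 summits, against 39.1% of reproducible peaks and 42.2% of start-site windows. At Hsp23 it was 17 bp from the summit and at the Hsp83 promoter 51 bp. At Hsp27 it lay 127 bp from the summit, on the side of the gene.

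The ETS core words CCGGAA and CAGGAA are forms of the sequence that ETS proteins bind. CCGGAA lay near none of the 7 summits, against 2.42% of reproducible peaks and 6.81% of the longer start-site windows. Its nearest match at these peaks stood 106 bp from the Hsp26 summit. CAGGAA lay near 1, the Hsp83 promoter, 21 bp from the summit, against 6.66% of reproducible peaks and 9.39% of start-site windows. The Hsp27 summit, the strongest of the 7, had none of the listed words within 100 bp. This says only that those letters are not in that window. The homeodomain word TAATTA lay near 3 of the 7 summits, against 18.1% of reproducible peaks and 18.9% of start-site windows. Hsp22 had 5 matches within 36 bp of its summit, most of them overlapping in a single run. The summit in Fdx1 lay on 1 match, and the Hsp83 intron had 1 at 56 bp. These 3 summits also had the lowest G+C content of the 7 in the window of 100 bp on either side of the summit, with 23.4% at Fdx1, 26.9% at Hsp22 and 29.9% at the Hsp83 intron. The median of the 7 was 31.3%, against 33.3% over the reproducible list. Hsp27 (38.8%), the Hsp83 promoter (46.8%) and Hsp23 (48.8%) stood above the list's upper quartile of 38.3%.

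The core TTCAATGCA of the ecdysone response element known upstream of Hsp27 was located for reference. It occurred once in the cluster, at 3L:9383518-9383526, which is 545 bp before the Hsp27 start site, 392 bp before the summit and 103 bp before the edge of the peak. The word therefore lay outside the Hsp27 peak. Another copy stood in the Hsp83 intron, centred 134 bp from the summit. The word was found within 100 bp of 0.412% of reproducible summits and in 0.418% of start-site windows.

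**Figure D4:**
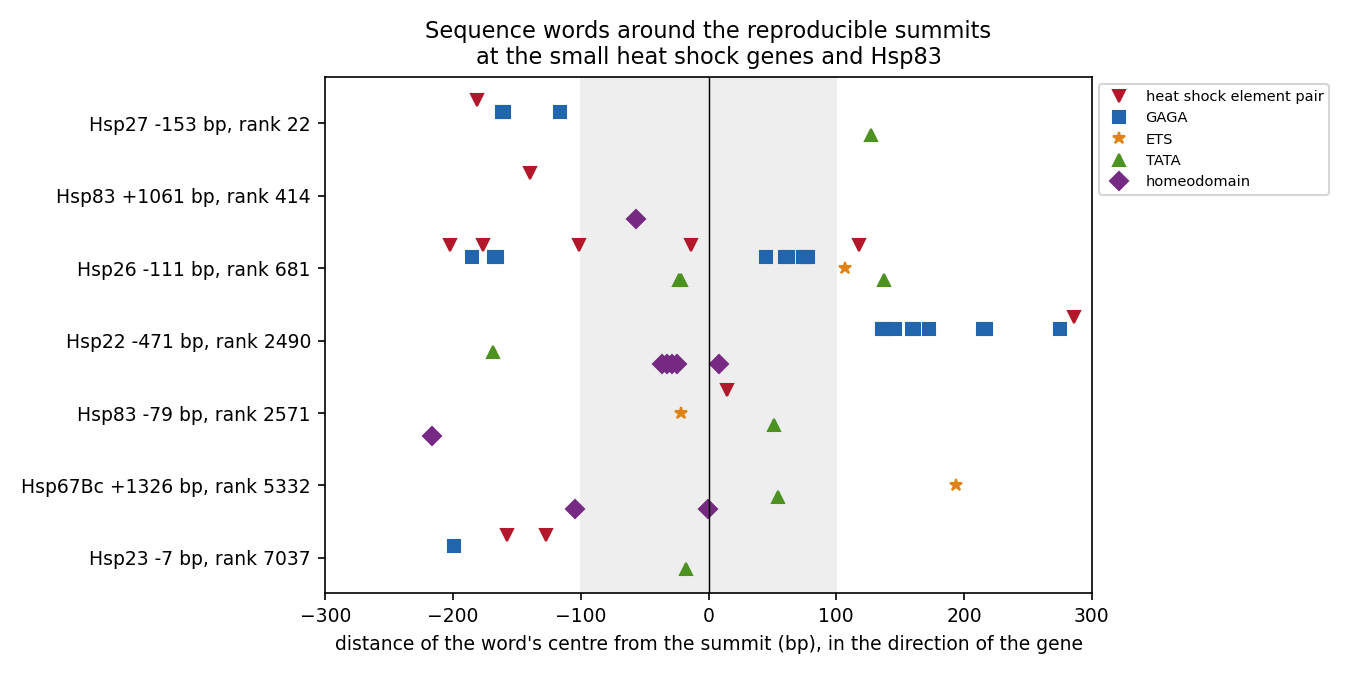
Position of each word's centre relative to the summit (bp, positive in the direction of the gene) for the 7 reproducible summits, ordered by pooled rank and named by the nearest start site of the 9 genes (the summit in Fdx1 appears under Hsp67Bc); the grey band is the 100 bp on either side in which words were counted. Heat shock element pairs fall in the band at Hsp26 and at the Hsp83 promoter, 5 TAATTA words, most of them overlapping, fall in it at Hsp22, and the band at Hsp27 is empty.

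The other chaperone genes gave a comparison within the same pathway. Of 51 protein-coding genes on a list of chaperones and cochaperones outside the 9, 15 carried a reproducible start-site summit, within 500 bp, against 20.5% of protein-coding genes, and 20 had one in the gene or within 2 kb, against 38.4%, which is near the same share. Of the 13 genes of the Hsp70 family, which refold the proteins that small heat shock proteins hold, 2 had a start-site summit (15.4%). They were Hsc70-5, the mitochondrial member, at rank 834 and Hsp110 at rank 7316. None of 5 further alpha-crystallin genes had one, and the 9 genes described here had 5 (55.6%). The 6 copies of Hsp70, the classic heat-induced genes, had 0 pooled summits within 500 bp of a start site. These copies are nearly identical, so reads could be lost or shared between them, and the absence of a peak there is uncertain.

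Of 11 genes that the list grouped as relatives and cochaperones of Hsp83, 5 had a start-site summit (45.5%). The grouping is that of the list, and not every gene in it acts with Hsp83 alone. They were Gp93, the Hsp90 of the endoplasmic reticulum (rank 3915), Cdc37, which loads kinases onto Hsp90 (rank 3089), unc-45, a myosin chaperone (rank 5019), stv, which encodes the Starvin partner of Hsp67Bc (rank 6893), and Sgt (rank 7077). All 5 ranked after the promoter summit of Hsp83 itself. Among 9 Hsp40 and exchange factor genes 4 had one (44.4%), namely DnaJ-H (rank 1059), CG5001 (rank 1502), mrj (rank 5066) and Droj2 (rank 7141). Among 13 chaperonin genes 4 had one (30.8%), namely CG11267 (rank 1944), Hsp60A (rank 3856), CCT3 (rank 3959) and CCT8 (rank 4439). The summits of Hsc70-5, Cdc37, Sgt, unc-45, Droj2, DnaJ-H, CCT3 and CCT8 also lay within 500 bp of a start site of a gene outside the list. No start-site summit of these protein-coding genes reached the rank of Hsp26 (681). In the wider window of 2 kb, CG11267 had a summit of rank 327, ahead of Hsp26, and stv had a summit of rank 819. The heat-induced noncoding RNA gene lncRNA:Hsromega had a summit 198 bp from its start with a signal value of 1382 and rank 369, between those of Hsp27 and Hsp26.

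**Figure D5:**
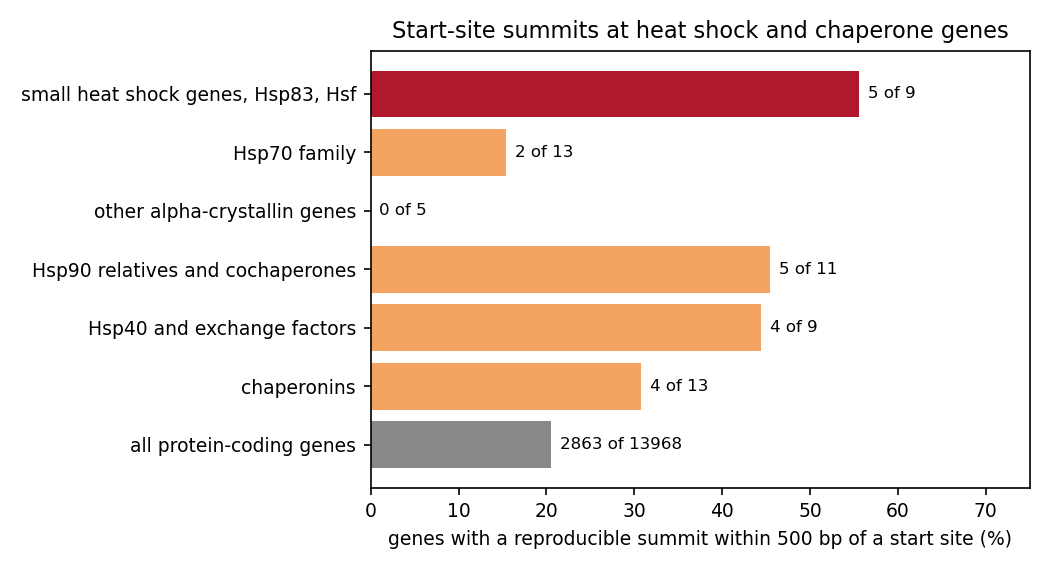
Share of genes with a reproducible summit within 500 bp of a start site (%), for the 9 genes described here, 5 groups of other chaperone genes and all protein-coding genes, with the counts beside each bar. The 9 genes, which were chosen with these peaks known, had 5. The groups ran from 0 of 5 other alpha-crystallin genes to 5 of 11 genes listed as Hsp90 relatives and cochaperones.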

How the data were processed

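The ChIP-seq libraries are 2 biological replicates of 1 group, mapped to it by the labels. The authors deposited 4 narrowPeak lists on dm6, per the deposited description files: 1 for each replicate against a control alignment, 1 pooled from both, and 1 of reproducible peaks past an irreproducible discovery rate threshold. For the aligner, the peak caller and that threshold, the names and values were not given in the sources used here. Signal values are the authors' scores, deposited per peak, and were used only to rank peaks within a list. The deposited −log10 q-value was 4.42 for every reproducible peak and ranked none. Deposited interval and summit positions are given 1-based.

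Counts, distances and word matches were computed in Python 3.11.15 with pandas 2.3.3 and numpy 2.4.6, and figures with matplotlib 3.10.9. Genes came from Ensembl release 115 and bases from the RefSeq copy of dm6. Counting was tested on simulated data. All peaks and columns of the 4 lists were used.

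The 9 genes, the chaperone list and the words were chosen with earlier results of these data known, so no test was run. The text names all 9 genes, the other genes in the cluster window, listed chaperone genes with a reproducible summit at a start site or in the gene, and the 3 genes nearest to Hsp27 in rank. The list symbol Hop matched more than 1 gene and was left out. Alternatives changed the window, the assignment of summits, the list, the replicate, the agreement distance and the word. The inexact rows of 3 heat shock units, the ecdysone word and a second cluster span were added after the data were seen.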

Additional observations from a re-analysis of the deposited data

How the results depend on the processing

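Of 36 alternatives, 29 stayed within 1.5 times the count reported. The number of the 9 genes with a reproducible summit in the gene or nearby was 8 under every window, list and replicate tried. The number with a start-site summit ran from 4 (200 bp, or the stronger part of the reproducible list) to 6 (1000 bp). The 15 other chaperone genes became 8 with a 200 bp window and 8 in the stronger part of the list, and 12 to 18 from 1 replicate alone. The 5 cluster summits became 3 in the stronger part of the list, which ends at rank 4007. The 13 summits seen in both replicates became 7 on the reproducible list, which holds fewer summits. The 2 peaks with a heat shock element pair became 4 within 150 bp, 0 for 3 full units and 1 for 3 units with up to 1 mismatch, the last chosen after the data were seen. A smaller window, a shorter list or full 3 units can only lower these counts, and a wider window can only raise them. For the row with a mismatch and for single replicates the cause was not tested. No paired analysis was possible because the 2 libraries form 1 group. Depth is unknown from these lists, so a summit missing from a list is not shown to be unbound.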

Other observations

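Some summits near these genes were found in 1 replicate list only. Replicate 2 had a peak at 3L:3198952-3199351, with its summit at 3199152, 62 bp into gry and just past the 2 kb window of Hsp83, with a signal value of 126 and rank 3564. It had no overlapping peak in the replicate 3 or the pooled list, and the nearest pooled summit was 1501 bp away. Of the 8015 strongest peaks of each replicate, 224 of replicate 2 (2.79%) and 41 of replicate 3 (0.512%) lacked an overlap in both of the other lists. In the coding sequence of Hsp83, replicate 3 alone had a weak summit at 3L:3195831 (rank 26784).

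Around the 6 Hsp70 copies, 2 pooled summits lay in the genes or within 2 kb, with 2 in replicate 2 and 2 in replicate 3, and 0 of them were reproducible.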
